A study of Mus musculus with 19 samples.

Results

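The regions described here are stretches of chromatin that were open in adult hematopoietic stem cells (HSC) and in no other population of the study, as far as the peak lists show. Open chromatin was mapped by ATAC-seq, in which a transposase inserts sequencing adapters where DNA is accessible, and the deposited files hold 1 list of peaks for each of 4 populations. Peaks of all 4 lists that shared at least 1 bp were merged, and a merged region was kept where it held peaks of the adult HSC list only. This left 9494 of 77133 merged regions, or 18.3% of the 51800 regions that held any adult HSC peak. The regions were thus chosen by the measured peak calls of these libraries, and their absence from the other lists is the rule itself, given without a test.

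The 4 populations came from C57BL/6 mice and had no other treatment or allele in the labels. Adult HSC and adult lymphoid-primed multipotent progenitors (LMPP) were sorted from bone marrow at 12 weeks of age, and fetal HSC and fetal LMPP from the liver at E14.5. All 4 gates took live cells with c-Kit and Sca-1 and without CD3, Gr1, B220 and Ter119. HSC carried CD150 and lacked CD48 and Flt3, LMPP carried CD48 and Flt3 and lacked CD150, and the adult gates alone also left out CD11b. Each peak list stands for 2 ATAC-seq libraries. RNA was sequenced in 11 libraries, 3 each of adult HSC, adult LMPP and fetal LMPP and 2 of fetal HSC. The study asked how HSC of the fetal liver and the adult marrow differ, with a view to the making of megakaryocytes under stress.

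HSC maintain all blood lineages, and LMPP are progenitors that have largely lost the capacity to make megakaryocytes and red cells while keeping lymphoid and granulocyte-monocyte potential. Adult HSC divide rarely, whereas fetal liver HSC expand. Part of the adult HSC pool is primed for the megakaryocyte lineage, the source of platelets. Cell-type-specific open regions lie mostly away from gene starts, where transcription factors of the GATA, RUNX and ETS families bind in blood cells, while gene starts tend to be open in many cell types.

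The members that lie on a gene start are the ones whose DNA can be shown beside a transcript. Of the promoter windows of RefSeq on GRCm38.p6, which run from 250 bases before to 50 bases after a gene start, 413 windows of 380 genes overlapped a member. The 6 windows below belong to genes whose RNA is described later: 2 platelet genes (Gp5, Treml1), 2 enzyme genes (Ces2g, Sult1a1) and 2 transcription factor genes (Sox6, Gata2). They were chosen after their values were seen, and at least 150 bases of each lay inside a member. They are written 5′ to 3′ in the direction of transcription. The windows are Gp5 chr16:30310732-30311031 (minus strand), Treml1 chr17:48359666-48359965 (plus), Ces2g chr8:104961468-104961767 (plus), Sult1a1 chr7:126676369-126676668 (minus), Sox6 chr7:115824661-115824960 (minus) and Gata2 chr6:88198414-88198713 (plus). Capitals mark matches, on either strand, to the GATA motif AGATAA, the RUNX motif TGTGGT and the ETS motif AGGAAGT.
Gp5: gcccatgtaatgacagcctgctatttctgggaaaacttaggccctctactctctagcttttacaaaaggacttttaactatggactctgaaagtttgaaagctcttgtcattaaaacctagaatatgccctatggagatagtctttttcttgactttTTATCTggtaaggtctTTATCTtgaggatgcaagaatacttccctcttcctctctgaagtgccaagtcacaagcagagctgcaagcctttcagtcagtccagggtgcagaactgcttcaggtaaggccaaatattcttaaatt
Treml1: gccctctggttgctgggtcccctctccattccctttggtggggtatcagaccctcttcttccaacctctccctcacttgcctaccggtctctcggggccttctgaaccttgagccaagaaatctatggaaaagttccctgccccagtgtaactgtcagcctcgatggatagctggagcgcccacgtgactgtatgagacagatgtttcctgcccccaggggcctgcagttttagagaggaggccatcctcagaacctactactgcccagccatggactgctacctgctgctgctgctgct
Ces2g: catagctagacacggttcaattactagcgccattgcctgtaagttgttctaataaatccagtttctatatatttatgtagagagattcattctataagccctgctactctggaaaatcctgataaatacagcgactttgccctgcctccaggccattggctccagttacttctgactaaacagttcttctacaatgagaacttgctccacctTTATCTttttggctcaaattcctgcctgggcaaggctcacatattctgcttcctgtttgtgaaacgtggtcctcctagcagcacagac
Sult1a1: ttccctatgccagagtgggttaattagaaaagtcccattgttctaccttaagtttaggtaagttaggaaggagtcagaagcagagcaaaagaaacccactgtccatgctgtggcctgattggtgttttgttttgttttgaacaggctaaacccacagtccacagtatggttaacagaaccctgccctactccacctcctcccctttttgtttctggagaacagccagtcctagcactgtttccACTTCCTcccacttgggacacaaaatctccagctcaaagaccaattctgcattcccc
Sox6: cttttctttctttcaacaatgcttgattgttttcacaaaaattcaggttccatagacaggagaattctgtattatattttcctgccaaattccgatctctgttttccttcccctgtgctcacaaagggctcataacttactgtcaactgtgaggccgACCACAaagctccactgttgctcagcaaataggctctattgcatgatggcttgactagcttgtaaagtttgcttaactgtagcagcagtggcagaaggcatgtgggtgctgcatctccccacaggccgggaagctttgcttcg
Gata2: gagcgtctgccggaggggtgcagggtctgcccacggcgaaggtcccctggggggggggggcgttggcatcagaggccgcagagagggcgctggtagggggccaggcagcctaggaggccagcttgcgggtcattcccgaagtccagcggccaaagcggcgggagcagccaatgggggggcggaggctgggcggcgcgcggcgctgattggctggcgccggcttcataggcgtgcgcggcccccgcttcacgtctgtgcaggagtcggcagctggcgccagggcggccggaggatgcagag

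Gp5 held the GATA letters on the reverse strand at positions -93 and -77 from the gene start, and Ces2g at -38. Sult1a1 held the ETS letters at -7 and Sox6 the RUNX letters at -93, both on the reverse strand. None of these letters stood in the Treml1 and Gata2 windows. Among the 413 windows under a member, 13.6% held the GATA letters, against 11.2% of all 32851 promoter windows and 5.18% of the windows under regions of all 4 lists. The share was 11.7% under fetal HSC only regions and 11.1% under adult LMPP only regions. RUNX letters stood in 16.9% of member windows and 16.8% of all windows, and ETS letters in 7.75% and 9.35%. The E-box CAGCTG stood in 21.3% and 16.3%, and GGGCGG, a motif of SP and KLF factors, in 48.9% and 35.7%. Windows under fetal HSC only regions held these in 17.5% and 47.5%, and windows under adult LMPP only regions in 17.9% and 36.2%. The letters of the 18 motifs searched can overlap, and matches were counted for each motif on its own, on both strands.

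Base composition differed between these sets of windows. The median GC content was 57.0% under members, 52.7% over all windows and 62.0% under regions of all 4 lists. The ratio of observed to expected CpG had medians of 0.466, 0.384 and 0.794 in the same order. When the member windows were split by GC content into groups of 137, 138 and 138, the GATA letters stood in 24.1%, 13% and 3.62% of them from the lowest to the highest GC, against 17.7%, 7.35% and 1.94% of all windows in the same GC ranges. These shares are descriptions of letters, not of bound factors, and windows of alternative starts of a gene overlap.

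Members were narrow and lay mostly away from gene starts. Their median width was 402 bp, with quartiles of 277 and 563 bp and a range of 150 to 1667 bp, and together they covered 4.24 Mb of the mm10 assembly. A gene start lay within 1 kb of 632 members (6.66%), 4397 (46.3%) lay elsewhere inside a gene and 4465 (47.0%) between genes. The 42306 adult HSC regions shared with another list had a median width of 783 bp, and 29.3% of them lay within 1 kb of a gene start. The median distance to the nearest gene start was 29.3 kb for members and 14.8 kb for shared regions. Regions held by the fetal HSC list alone (6916, or 14.6% of its regions) had 6.42% at gene starts, 53.9% between genes and a median distance of 44.9 kb. Regions held by the adult LMPP list alone (8114, 16.3%) had 4.62% at gene starts and a median distance of 27.3 kb. The fetal LMPP list held 2356 regions of its own (6.46%).

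Members took up the weaker end of the adult HSC list. The deposited signal value, the peak caller's own measure of height, had a median of 6.56 over members, with quartiles of 5.37 and 8.47 and a range of 1.46 to 28.6. The other 43574 adult HSC peaks had a median of 10.8. The top score of 1000 was given to 7.71% of members and to 48.9% of the other peaks, and 71.4% of members had a single summit, against 47.4%. When the 53068 distinct adult HSC peaks were ranked by signal, members made up 1.36% of the highest and 42.4% of the lowest of 10 groups of about equal size. The deposited q value was 0.05 or above for 188 members (1.98%) and for 144 of the other peaks (0.330%). The adult HSC list was also the longest, against 48286 distinct peaks in fetal HSC, 50579 in adult LMPP and 37156 in fetal LMPP. The part of list length in membership was not tested. A weak region can miss a list without being closed, and no read counts per region were used, so whether these regions were less open in the other populations was not tested.

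**Figure D1:**
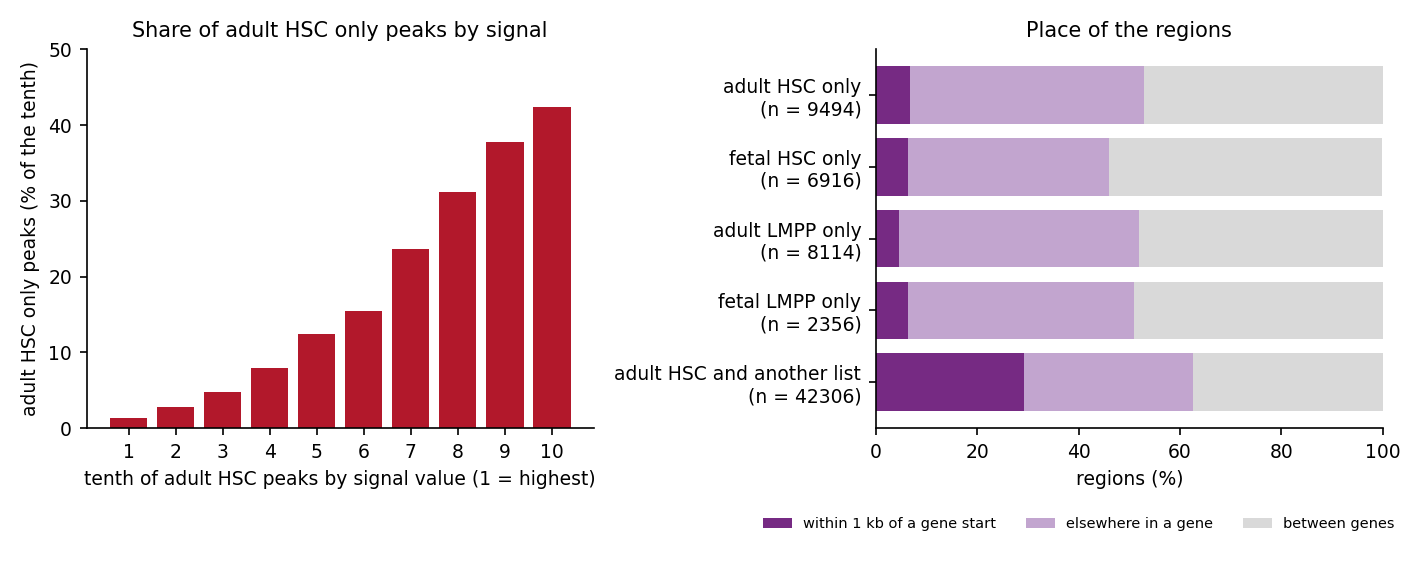
Left, share of adult HSC only peaks (%) in each of 10 groups of about equal size along the adult HSC list ranked by signal value, 1 being the highest; the share climbs from 1.36% to 42.4%. Right, share of regions (%) within 1 kb of a gene start, elsewhere in a gene and between genes, for regions of 1 list and for shared adult HSC regions, where 29.3% lie at gene starts against 6.66% of the adult HSC only regions.

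The rule's edge was thinly filled. The median gap from a member to the nearest peak of another list was 7.14 kb, and 835 members (8.80%) lay within 500 bp of one. Just inside the rule, 11 members had such a peak within 10 bp and a median signal value of 2.57. Just outside it, 5 adult HSC peaks shared fewer than 10 bp with another list, with a median signal value of 1.99. Where only peaks at or above the median score of their list were used, 4633 regions met the rule. Where this limit was set on the adult HSC list and the others were kept whole, 1243 met it.

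Members were spread over the genome, with local clusters. They made up between 14.7% (chromosome 7) and 20.5% (chromosome 18) of the adult HSC regions on each autosome and 20.2% of those on the X chromosome. Another member lay within 20 kb of 2694 members (28.4%). The densest stretch, chr19:57180357-57275265, held 10 members among its 12 adult HSC regions and reaches from upstream of Ablim1, an actin-binding protein gene, to the start of 4930449E18Rik. A stretch on chr10:117855984-117953439, at 4933411E08Rik, held 8 of 10. In the phosphoinositide kinase gene Pip4k2a, 7 members lay within 37.9 kb, at chr2:18955528-18993396. In and upstream of Smad1, which encodes a signal transducer of bone morphogenetic proteins, 7 lay at chr8:79339653-79429718. A stretch at chr10:79866075-79958423, which holds the neutrophil granule protease genes Prtn3 and Elane, had 6.

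The member with the highest signal value, 28.6, was chr1:63879336-63880190, between genes and 73.3 kb from any peak of another list; its nearest gene start, at 85.0 kb, was that of Gm13749. The next lay in the body of Ncam2, which encodes a neural cell adhesion molecule (chr16:81365892-81366438, signal 28), and upstream of Arhgap24, which encodes a GTPase-activating protein (chr5:102447443-102448074, signal 27.9). Of the 12 highest, 4 lay in gene bodies, among them Ncam2, Adamts3 and Aldh1a1, the other 8 lay between genes and 0 lay at a gene start. One of these 8 lay 65.6 kb downstream of the start of Dusp6, which encodes an ERK phosphatase (chr10:99328590-99328976, signal 24.3). The twelfth, chr19:20613894-20614797 (signal 23.6), lay inside Aldh1a1, which encodes a retinaldehyde dehydrogenase. High signal did not go with a high transcript in each case: Adamts3 was at 1.81, 3.16 and 2.82 CPM in adult HSC, within the range of 1.07 to 3.98 CPM of the other libraries.

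The RNA libraries were independent of the region rule and were used for all tests. They held 19.8 to 64.78 M counts. Levels are given as CPM, counts scaled to a common library total after TMM, and log2 differences are given ± SE. The labels call the replicates biological without naming animals or pools, and a p-value here covers no more than the variation among the libraries at hand, part of which may be technical. RNA of the marker genes Slamf1 and Flt3 followed the gates. Slamf1, which encodes CD150, was at 69.0 to 74.0 CPM in adult HSC, 52.7 to 56.8 in fetal HSC and at most 0.953 in LMPP. Flt3 was at 9.40 to 16.4 CPM in adult HSC, 28.2 to 29.8 in fetal HSC, 908 to 1064 in adult LMPP and 469 to 512 in fetal LMPP. Itgam, which encodes CD11b, did not follow its gate in adult LMPP. It was at 2.31 to 4.41 CPM in adult HSC and 17.2 to 38.0 in adult LMPP, both sorted without CD11b. Fetal HSC were at 29.7 and 37.1 CPM and fetal LMPP at 24.9 to 47.2, so that adult LMPP overlapped the fetal groups. Some libraries stood apart from their group. Kit was at 1138, 1143 and 195 CPM in adult HSC 1, 2 and 3, at 551, 592 and 158 in adult LMPP and at 279.7, 474 and 526 in fetal LMPP. The ubiquitin gene Ubb took 2.68% and 2.59% of the counts of adult HSC 3 and adult LMPP 3, against 0.897 to 1.54% elsewhere. Results over all genes are therefore also given without adult HSC 3, adult LMPP 3 and fetal LMPP 1.

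A gene was linked to a member when its start was the nearest to the region's centre and lay within 100 kb. This tied 7591 members to 5472 genes. Of these, 3949 genes had 1 member, 1092 had 2, 316 had 3, 81 had 4 and 34 had 5 or more. Enough counts for a test were present for 3688 of the linked genes (67.4%), and 1784 were below the filter. Proximity does not show that a region acts on a gene. The comparisons below all use the same adult HSC libraries, so they are not independent of each other.

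Genes near members were called higher in adult HSC more often than genes at large. Against fetal HSC, 169 linked genes (4.58% of those tested) were called higher in adult HSC and 99 (2.68%) lower, where the background over all 14720 genes was 2.89% higher and 2.07% lower. Against adult LMPP, 545 (14.8%) were called higher and 292 (7.92%) lower, with a background of 9.33% and 7.76%. A fit of those 2 groups with the replicate number as a block called 861 (25.3%) higher and 508 (14.9%) lower, where all genes in that fit gave 16.7% and 15.2%. Against the mean of the other 3 groups, the contrast with the shape of the rule, 789 (21.4%) were called higher and 310 (8.41%) lower, with a background of 14.9% and 9.33%. The median log2 difference of the linked genes in that contrast was 0.20, against 0.05 over all genes. In bulk samples, fewer cells of a type and less RNA per cell cannot be told apart.

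Without the 3 libraries that stood apart, 479 of 3626 linked genes (13.2%) were called higher against fetal HSC, where 8.59% of all genes were. The counts were then 860 (23.7%, background 15.9%) against adult LMPP and 1154 (31.8%, background 23.1%) against the other 3 groups. The share called higher among linked genes exceeded that of all genes in 12 of 12, 14 of 14 and 17 of 17 settings of the 3 comparisons, by 1.45 to 1.72, 1.49 to 1.69 and 1.38 to 1.54 times. The counts against fetal HSC rest on its 2 libraries: 49 linked genes were called higher without fetal HSC 1 and 40 without fetal HSC 2. Linked genes also differed from the rest in other ways. Their median level in adult HSC was 20.3 CPM and their median span 32.5 kb, against 26.8 CPM and 17.2 kb for tested genes with no member. The part of level and span in the counts was not tested.

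Genes with more members were not called higher at each step. Against the other 3 groups, 12.8% of tested genes with 0 members were called higher, 20.4% with 1, 21.9% with 2, 28.8% with 3 and 27.1% with 4 or more, the last from 85 genes. The share was higher at short range. Genes with a member centre within 10 kb of their start were called higher in 26.1% of cases, those at 10 to 50 kb in 18.4% and those at 50 to 100 kb in 18.0%. The share was 22.2% for genes linked to members in the upper range of signal, split at the median, and 21.4% for the lower range. These differences between subsets were not tested.

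The largest share was found where a member lay at the gene start itself. A start lay within 1 kb of a member for 643 genes, of which 425 were tested. Of the tested genes, 34 (8.0%) were called higher against fetal HSC, 95 (22.4%) against adult LMPP and 131 (30.8%) against the other 3 groups, where the median log2 difference was 0.58. Called lower were 13 (3.06%), 29 (6.82%) and 25 (5.88%). Without the 3 libraries that stood apart, 167 of 415 (40.2%) were called higher against the other 3 groups, with a background of 23.1%. The genes concerned were expressed at a low level, with a median of 7.65 CPM in adult HSC against 25.2 CPM over all tested genes.

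**Figure D2:**
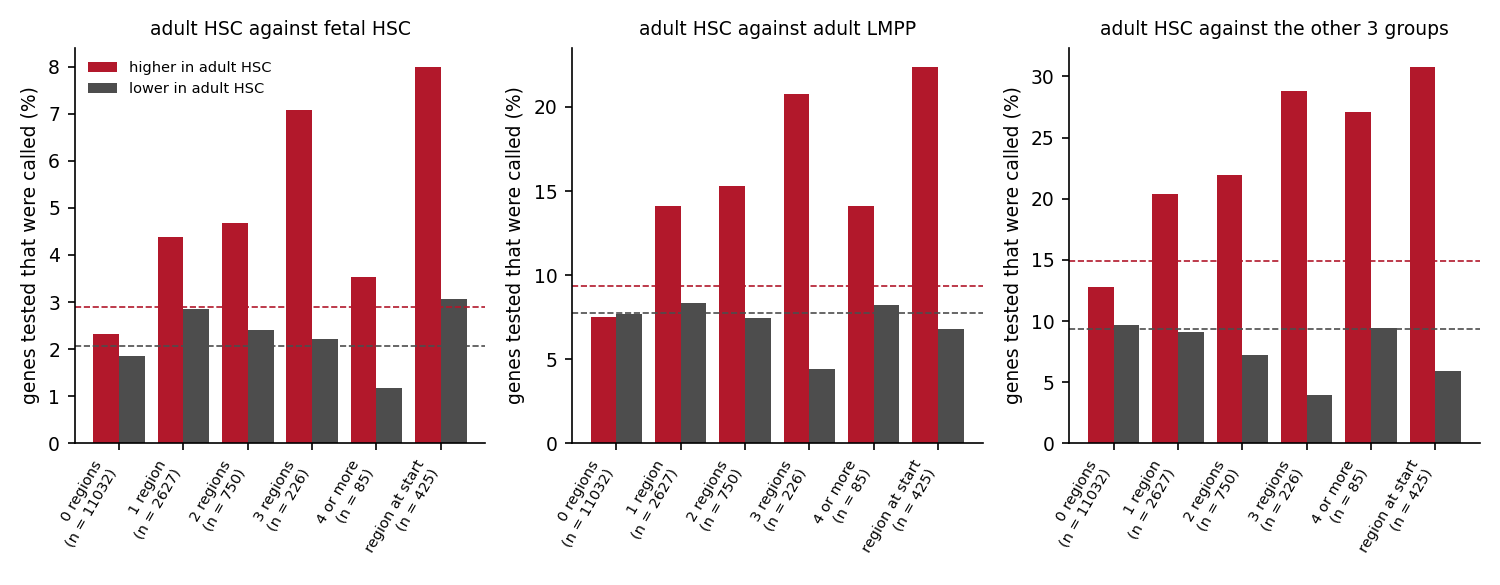
Share of tested genes (%) called higher (red) or lower (grey) in adult HSC at an edgeR adjusted p under 0.05, by the number of adult HSC only regions linked to the gene and for genes with a region at the start; dashed lines give the share over all 14720 genes. In the right-hand comparison the red bars run from 12.8% with 0 regions to 30.8% with a region at the start.

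Genes near regions unique to other lists also departed from all genes. Genes linked to fetal HSC only regions were called higher in adult HSC against fetal HSC in 3.07% of cases and lower in 3.24%, where all genes gave 2.89% and 2.07%. Against adult LMPP they were called higher in 12.5%, where all genes gave 9.33% and genes linked to adult HSC only regions 14.8%. Against the other 3 groups the shares called higher were 16.6% for fetal HSC only and 17.2% for adult LMPP only regions. All genes gave 14.9% there, and genes linked to adult HSC only regions 21.4%. Genes linked to adult LMPP only regions were called higher in adult HSC against adult LMPP in 10.3% and lower in 10.6%, where all genes gave 9.33% and 7.76%. The same genes were called higher in adult HSC against fetal HSC in 4.31% and lower in 2.99%, close to the 4.58% and 2.68% of genes linked to adult HSC only regions. The gene sets overlapped. Of the genes linked to adult HSC only regions, 1309 were also linked to fetal HSC only regions, which is 23.9% of the former and 33.3% of the latter, and 1938 were also linked to adult LMPP only regions (35.4% and 39.8%). Genes linked to both adult and fetal HSC only regions (855 tested) were called higher against fetal HSC in 3.86% of cases, and genes linked to the adult HSC only kind alone (2833 tested) in 4.80%. The differences between these gene sets were not tested.

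Several genes with a member at the start were picked because adult HSC stood above all other libraries. Among them were Sult1a1, Ces2g, Tnfsf13, Sox6, Foxa3 and Gp5, so their lack of overlap was set by the choice. Sult1a1 encodes a sulfotransferase that conjugates phenols, including drugs. It was at 50.7, 87.2 and 109 CPM in the adult HSC libraries, 0.236 and 0.439 in fetal HSC, 0.808, 0.560 and 0.786 in adult LMPP and 0.657, 0 and 0.552 in fetal LMPP. Adult HSC stood above all other libraries with no overlap, by 7.87 ± 0.95 on the log2 scale over fetal HSC (edgeR adjusted p = 0.00097) and 6.85 ± 0.74 over adult LMPP (adjusted p = 0.00021). The member over its start (chr7:126675924-126676586, 663 bp, signal 7.00) was the only peak of any list from 6 kb upstream to 10 kb downstream of the start.

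Ces2g, a carboxylesterase gene, was at 64.3, 42.3 and 46.2 CPM in adult HSC and 7.31 and 5.75 in fetal HSC. It was at 0, 0.672 and 0.557 CPM in adult LMPP and at 0 in each fetal LMPP library, so that adult HSC were at least 524-fold higher than fetal LMPP at a floor of 3 counts per library. It was called higher against adult LMPP (6.85 ± 0.76, adjusted p = 0.00064) but not against fetal HSC (2.96 ± 0.72, adjusted p = 0.058). Its member, chr8:104961475-104962020, lay 105 kb from the nearest peak of another list. Tnfsf13, which encodes the B cell survival cytokine APRIL, was at 21.5, 26.1 and 32.8 CPM in adult HSC and 0.669 and 0.829 in fetal HSC, and at 5.70 to 7.93 in adult LMPP. It rose by 5.15 ± 0.80 over fetal HSC (adjusted p = 0.004), a call lost without either fetal HSC library (adjusted p = 0.07 and 0.073). Tnfsf13 and Tnfsf12 are adjacent genes whose reads may not be fully separated.

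The transcription factor genes Sox6, Foxa3 and Gata2 also had a member at the start. Sox6 encodes an SRY-related factor with a role in erythroid maturation. It was at 60, 61.9 and 29.4 CPM in adult HSC, 9.67 and 6.92 in fetal HSC, 2.02 to 2.91 in adult LMPP and at most 0.680 in fetal LMPP. The call held against adult LMPP (4.41 ± 0.83, adjusted p = 0.0047) and not against fetal HSC (2.60 ± 0.88, adjusted p = 0.14). Foxa3, a forkhead factor best known from liver, was at 8.15, 11.8 and 13.6 CPM in adult HSC, 1.89 and 2.39 in fetal HSC, 0.196 to 1.21 in adult LMPP and 0 in fetal LMPP. Gata2, a factor required for HSC, was at 579, 446 and 289.7 CPM in adult HSC and 309 and 299 in fetal HSC, so that the HSC groups overlapped (0.53 ± 0.31, adjusted p = 0.42). It was at 33.1 to 54.0 CPM in adult LMPP and 26.4 to 44.9 in fetal LMPP, below every HSC library (3.27 ± 0.30 over adult LMPP, adjusted p = 8.1e-05). The member at the Gata2 start was 397 bp wide with a signal of 5.10, and 3 other adult HSC peaks within 12 kb upstream and 16 kb downstream of the start each overlapped a fetal HSC peak.

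**Figure D3:**
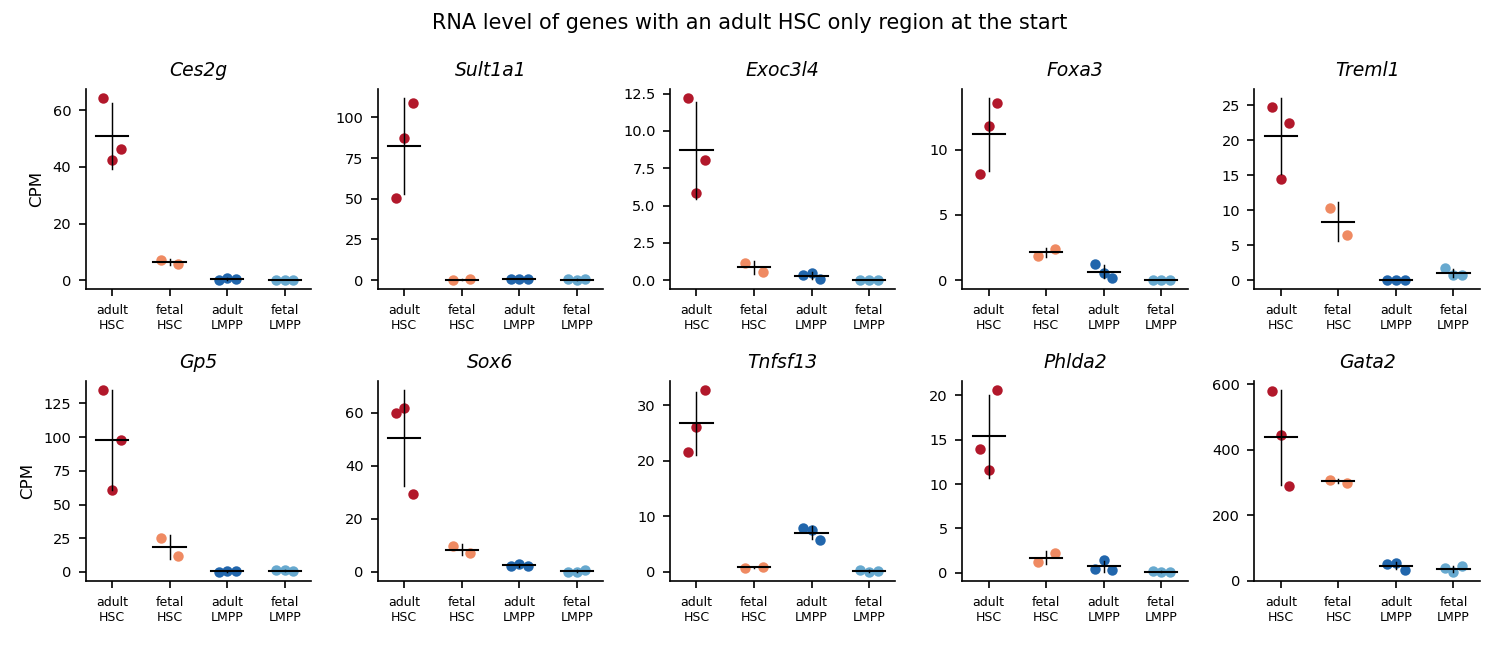
RNA level (CPM, linear axis from 0, scaled to each gene) of 10 genes with an adult HSC only region at the start; points are libraries, horizontal lines the group mean and vertical lines 1 SD. The 9 genes other than Gata2 were picked because all 3 adult HSC points lie above every other library, so this separation was set by the choice. For Gata2 the adult and fetal HSC points overlap.

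Across the start-linked genes, 48 (11.3% of 425) were called higher against the other 3 groups with at least 5 CPM and no overlap between adult HSC and other libraries, and 5 (1.18%) were lower by the same rule. The background of that rule was 5.03% higher and 3.61% lower, and among all linked genes 277 (7.51%) and 120 (3.25%) met it. Against both fetal HSC and adult LMPP, 15 start-linked genes (3.53%) were called higher, against 0.958% of all genes. Among them was Art4, which encodes the Dombrock blood group protein, at 115, 162 and 168 CPM in adult HSC and 7.65 to 26.3 CPM in all other libraries. Its differences were 2.65 ± 0.36 over fetal HSC (adjusted p = 0.0019) and 3.64 ± 0.32 over adult LMPP (adjusted p = 6.2e-05). Galnt6, a mucin-type glycosyltransferase gene, was at 154, 156 and 80.1 CPM in adult HSC and 36.1 to 84.1 in adult LMPP, and at 1.85 to 5.25 in both fetal groups (5.81 ± 0.52 over fetal HSC, adjusted p = 0.00019). Over adult LMPP it was 1.08 ± 0.35 higher, with an adjusted p of 0.061 without pairing and 0.0088 with the replicate block.

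Away from gene starts, Aldh1a1 carried the clearest pattern. Its body held 3 members, at 65.92 to 66.769, 74.584 to 74.784 and 121.311 to 122.214 kb from its start, and 1 more lay upstream, from -46.302 to -46.066 kb. These positions rest on the single transcript given per gene with the counts, which spans 150.88 kb here. Other starts of Aldh1a1 were not examined. Its RNA was at 97.3, 132 and 131 CPM in adult HSC and at 0 in both fetal HSC libraries and in all fetal LMPP libraries. Adult LMPP were at 0.354, 0 and 0.884 CPM. Adult HSC were thus at least 1255-fold higher than fetal HSC at the floor of 3 counts per library, and 8.19 ± 0.93 higher than adult LMPP on the log2 scale (adjusted p = 0.0012). Its close relative Aldh1a7, on the same chromosome, had a member at its start and was at 1.62, 1.85 and 2.19 CPM in adult HSC, and reads of such near-identical genes can be confused. The start of C730002L08Rik is nearer to the strongest Aldh1a1 member than that of Aldh1a1, so the nearest-start rule linked 0 members to Aldh1a1.

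**Figure D4:**
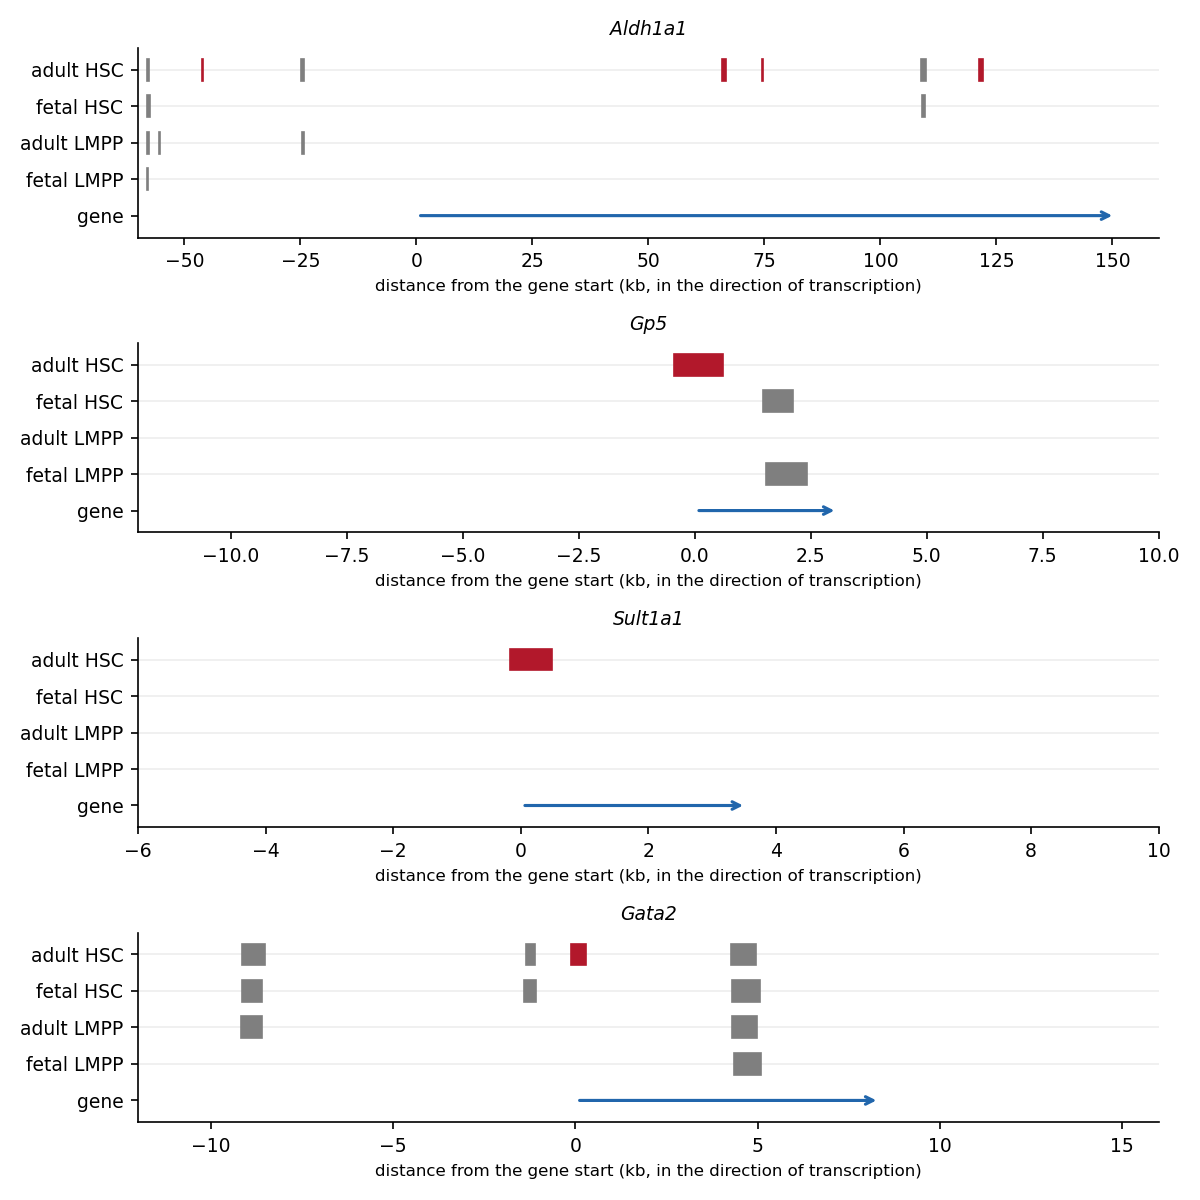
Peaks of the 4 lists around Aldh1a1, Gp5, Sult1a1 and Gata2, by distance from the gene start (kb, in the direction of transcription); red bars are adult HSC only regions, grey bars other peaks, and the arrow is the gene from start to end. In Gp5 and Sult1a1 the start lies under a red bar and under no peak of the other 3 lists, and the fetal peaks inside Gp5 begin 1.476 and 1.531 kb downstream of it.

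Among linked genes with at least 5 CPM and no overlap between groups, rises against the other 3 groups were ranked by fitted log2 difference. The 3 largest were those of Matn4, Smtnl1 and Gda (10.58, 8.93 and 8.57). Where a group was at 0, as for Matn4 and Smtnl1, this difference is not a measured fold. The order of such genes is thus not a measured order. Matn4, which encodes the matrix protein matrilin-4, was at 3.74, 6.57 and 6.16 CPM in adult HSC and at 0 in all other libraries, at least 57.5-fold higher than fetal HSC. Smtnl1, the smoothelin-like gene, was at 12.9, 11.8 and 19.3 CPM in adult HSC, 2.10 ± 0.0710 (SD, n = 2) in fetal HSC and at 0 in all LMPP libraries (2.80 ± 0.46 over fetal HSC on the log2 scale, adjusted p = 0.02, and 0.055 to 0.19 without any 1 HSC library). Gda, which encodes guanine deaminase, was at 17.7, 32.7 and 18.8 CPM in adult HSC and at most 0.910 in all other libraries. Cavin2, a gene of caveolar coat protein, had 2 members and was at 229, 126 and 132 CPM in adult HSC, 28.2 and 13.5 in fetal HSC, 0 in adult LMPP and 4.85 to 11.2 in fetal LMPP. Adult HSC were at least 1458-fold higher than adult LMPP, and 2.96 ± 0.51 higher than fetal HSC on the log2 scale (adjusted p = 0.013, and 0.14 without fetal HSC 2). Cpne8, which encodes a calcium-dependent membrane-binding copine, had 3 members in its body and was at 14.1, 26.4 and 25.7 CPM in adult HSC, 1.89 and 3.17 in fetal HSC and at most 0.0655 in LMPP. Ptn, the gene of the growth factor pleiotrophin, was at 21.9, 14.1 and 37.6 CPM in adult HSC, 1.81 and 1.78 in fetal HSC, 0.196 to 1.40 in adult LMPP and 0 in fetal LMPP. Ncam2, with 5 members in its body, fell short of 5 CPM on average and was low and uneven, at 3.55, 8.04 and 1.71 CPM in adult HSC, and at 0 in all but 1 of the other libraries.

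Some genes near members were lower in adult HSC. Postn, the matrix protein gene periostin, had a member 5.79 kb upstream of its start and was at 0 in all 3 adult HSC libraries. It was at 19.3 and 27.7 CPM in fetal HSC, 4.71 to 7.60 in adult LMPP and 18.1 to 24.3 in fetal LMPP (adjusted p = 7.8e-06 against the other 3 groups). Cnn3, which encodes an actin-binding calponin, was at 5.93, 11.4 and 10.2 CPM in adult HSC and at 189 to 758 in all other libraries (adjusted p = 3.7e-06). Pip4k2a, with its 7 members, was at 76.3, 65.8 and 34.1 CPM in adult HSC and 85.2 to 225 elsewhere, lower by the test against the other 3 groups (-1.06 ± 0.25, adjusted p = 0.012). Of the other genes with most members, Aff1 and Ablim1 (7 each) and Med13l (6) did not pass the test in that contrast (adjusted p = 0.6, 0.053 and 0.52). Smad1 was at 83, 87.0 and 82.8 CPM in adult HSC and 51.8 and 54.0 in fetal HSC (0.67 ± 0.15, adjusted p = 0.029). Adult LMPP were as high as adult HSC, at 84.1, 93.1 and 89.0 CPM (-0.07 ± 0.13, adjusted p = 0.78). The call against fetal HSC was lost without adult HSC 1 or 2 (adjusted p = 0.065 and 0.075). It was also lost with the replicate block (adjusted p = 0.07) and with only those groups fitted (0.13), and it rests on 2 fetal HSC libraries.

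Megakaryocyte and platelet genes, a list of 38, were, of 11 lists, the one with the largest share of genes higher in adult HSC than in adult LMPP. Members were linked to 19 of them (50%, where 21.8% of all genes in the table and 25.1% of those tested were linked), through 30 regions, and lay at gene starts such as those of Gp1bb, Gp5, Treml1 and Fli1. Of the 36 tested, 31 rose and 0 fell against adult LMPP. Among the 19 linked genes 16 rose, a share near that of the whole list, so the rise was not particular to linked genes. The list's median log2 difference was 3.82, against 0.05 over all genes. Against fetal HSC, 4 rose and 0 fell, and the tetraspanin gene Cd9 was the 1 linked gene among them. Without the 3 libraries that stood apart, 18 of the list rose against fetal HSC, 12 of them linked. The summed level of 8 megakaryocyte markers was 258 to 742 CPM in adult HSC, 71.2 to 119 in fetal HSC, 5.86 to 8.69 in adult LMPP and 16.1 to 54.6 in fetal LMPP, with Gp6 at 0 in adult HSC. The markers Gp1bb and Treml1 are also on the list, and the part of megakaryocytes in the sort was not tested.

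Of the platelet receptor genes, Gp5 and Gp1bb encode parts of the receptor for von Willebrand factor. Gp5 was at 135, 61.0 and 98.1 CPM in adult HSC, 25 and 12.0 in fetal HSC, at most 0.982 in adult LMPP and at most 1.33 in fetal LMPP. Adult HSC stood above every other library, by 7.47 ± 0.84 on the log2 scale over adult LMPP (adjusted p = 0.00025) and by 2.41 ± 0.75 over fetal HSC (adjusted p = 0.11). Gp1bb was at 69.6, 27.2 and 41.1 CPM in adult HSC, 12.1 and 2.68 in fetal HSC and at most 1.51 in LMPP. Its reads may include those of the neighbouring septin gene, with which it overlaps. Treml1, which encodes a receptor of platelet granules, was at 24.8 and 22.5 CPM in adult HSC 1 and 3 (mean 20.6 ± 5.39, SD, n = 3, with adult HSC 2 the lowest), 10.3 and 6.41 in fetal HSC and 0 in all adult LMPP libraries, at least 185-fold lower than in adult HSC. Itgb3, the integrin beta 3 gene, had 4 linked members and was at 81.7, 66.9 and 12.6 CPM in adult HSC, where adult HSC 3 was the low library, and 8.85 and 2.00 in fetal HSC. Cd9 was at 324, 215 and 377 CPM in adult HSC and 42.4 to 84.3 in all other libraries (1.86 ± 0.25 over fetal HSC, adjusted p = 0.0019).

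Not all platelet genes had a member near them. Vwf, Pf4, Itga2b and Selp had 0 members linked or in the body, and Pf4 was nevertheless at 536, 155 and 161 CPM in adult HSC and 26.3 and 9.26 in fetal HSC.

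Among 40 stem cell regulators, members were linked to 21 (52.5%, against the same 21.8%) and lay at gene starts such as those of Hlf, Gata2 and Fli1. Against adult LMPP, 24 of the 40 rose and 1 fell. Among the 21 linked genes 13 rose and 1 fell, so the share that rose was near that of the whole list. In the 2-group fit with the replicate block, 29 of the list rose and 3 fell. Against fetal HSC, 3 of the list rose and 1 fell. The homeobox gene Meis1, a partner of Hox factors, had 4 members and was at 443, 500.2 and 296 CPM in adult HSC and 277 and 323 in fetal HSC, against 99.5 to 168 in adult LMPP (1.56 ± 0.25, adjusted p = 0.0019). Procr, the gene of the endothelial protein C receptor, had 2 and was at 46.4, 85.7 and 59.4 CPM in adult HSC, 71.7 and 99.9 in fetal HSC and 2.88 to 15.5 in LMPP. Hlf, a PAR bZIP factor gene with 2 members, was at 157, 239.9 and 65.2 CPM in adult HSC and 149 and 222 in fetal HSC, and the test against adult LMPP was not passed (adjusted p = 0.18) except in that block fit (0.84 on the log2 scale, adjusted p = 0.015). The member at the Fli1 start lay 0.001 kb from a peak of another list, and the Fli1 call against adult LMPP (0.93 ± 0.27, adjusted p = 0.04) was lost without adult HSC 1 or 2 or any adult LMPP library (adjusted p = 0.068 to 0.14). The gene that fell was Gfi1, a zinc finger repressor, at 7.23, 10.2 and 10.8 CPM in adult HSC and 100.0 and 128 in fetal HSC (-3.60 ± 0.29, adjusted p = 0.00011).

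**Figure D5:**
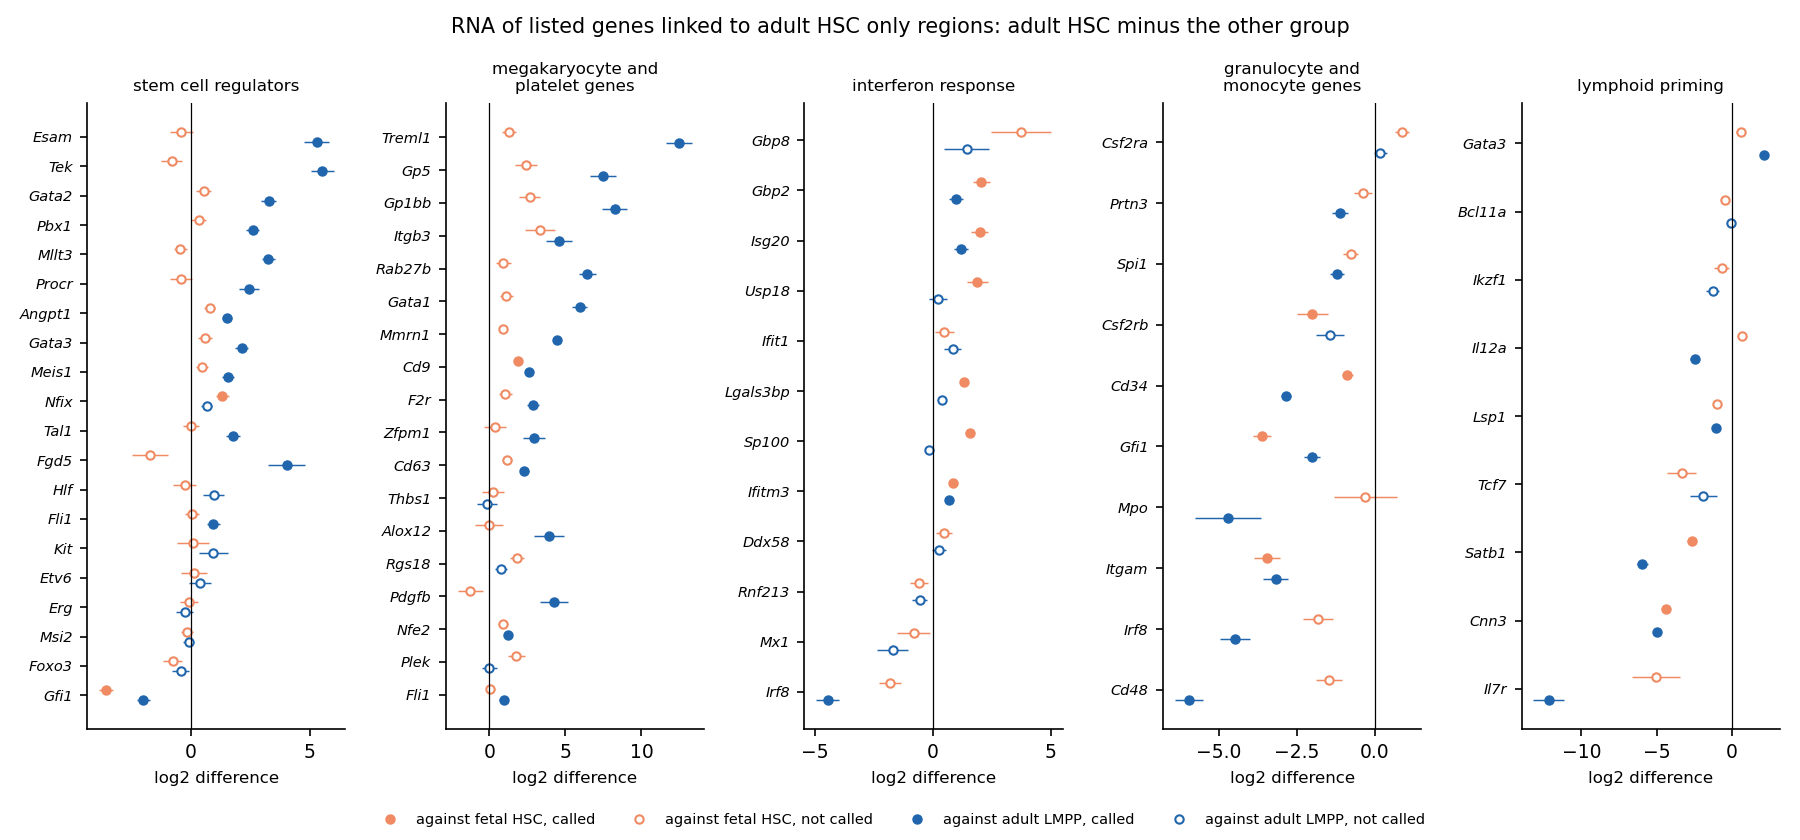
Log2 difference in RNA (adult HSC minus the other group, points, with SE as bars) for listed genes linked to adult HSC only regions, in 5 lists, without those not reported here; filled points passed the test (edgeR adjusted p under 0.05) and open points did not. In the platelet list 15 of 18 blue points (against adult LMPP) are filled and lie right of 0, while the granulocyte and monocyte list has 8 filled blue points left of 0.

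Of 24 antigen presentation genes, 21 rose and 0 fell against fetal HSC. Members were linked to 6 of the 24 (25%, near the share of all genes), and 5 of the 6 rose. Against adult LMPP, 3 of the list rose and 4 fell, or 7 and 5 in the 2-group fit with the replicate block. H2-Q5, a class I histocompatibility gene, and Tapbp, the tapasin gene of peptide loading, had a member at the start. H2-Q5 was at 56.3, 54.3 and 35.4 CPM in adult HSC, 32.4 to 41.1 in adult LMPP and at most 1.61 in the fetal groups (5.11 ± 0.38 over fetal HSC, adjusted p = 6.2e-05), with near-identical neighbours that may share its reads. Tapbp was at 328, 331 and 414 CPM in adult HSC and 175 and 191 in fetal HSC (0.97 ± 0.15, adjusted p = 0.0037, and 0.067 without fetal HSC 1). Of 42 interferon response genes, 13 (31.0%) were linked, and 12 of the list rose and 0 fell against fetal HSC, with 7 of the 12 linked. Against adult LMPP, 8 rose and 4 fell, or 17 and 5 in the same block fit. Gbp2, an interferon-induced guanylate-binding protein gene with a member at the start, was at 60.7, 97.5 and 109 CPM in adult HSC, 22.9 and 19.8 in fetal HSC and 35 to 53.6 in adult LMPP. It rose against fetal HSC (2.06 ± 0.36, adjusted p = 0.008), a call lost without either fetal HSC library (adjusted p = 0.078 and 0.12), and related Gbp genes may share its reads.

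Lymphoid and myeloid genes near members were mostly lower in adult HSC than in adult LMPP, as were these lists as a whole. Against fetal HSC, 2 of 9 linked lymphoid genes and 4 of 10 linked granulocyte and monocyte genes fell. A member at the start was found for 0 of the 28 lymphoid and 24 granulocyte and monocyte genes, where 643 of all 25124 genes had one. With lists this short, 0 cannot be told from the share of all genes. Of 27 tested lymphoid priming genes, 17 fell and 2 rose against adult LMPP, where 5 of the 9 linked genes fell and 1 rose. Satb1, a chromatin organizer of lymphoid cells, held a member in its body and was at 4.88, 6.12 and 2.29 CPM in adult HSC, 24 and 30.5 in fetal HSC and 198 to 318 in LMPP (-5.96 ± 0.36 against adult LMPP, adjusted p = 7.6e-06). Il7r, the interleukin 7 receptor gene, was at 0 in adult HSC and at 15.3 to 19.4 CPM in adult LMPP (adjusted p = 0.00016). Of 24 granulocyte and monocyte genes, 13 fell and 0 rose against adult LMPP, and 8 of the 10 linked genes were among those that fell. Irf8, a factor of monocyte and dendritic cells, had 3 members and was at 4.25, 7.68 and 13.6 CPM in adult HSC, 27.8 and 32.7 in fetal HSC and 179 to 211 in adult LMPP (-4.48 ± 0.48, adjusted p = 0.0002). Cd48, also linked, encodes CD48, by which HSC and LMPP were separated, so its difference is not independent of the sort. Itgam, also linked, encodes CD11b, which both adult gates left out and the fetal gates did not. That gate separates the ages and not adult HSC from adult LMPP.

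Of 32 adhesion and niche genes, 18 (56.2%) were linked, and 9 of the list rose and 7 fell against adult LMPP (linked: 7 and 1). Cxcr4 and Vcam1 had a member at the start, and Cxcr4, the receptor for CXCL12, was lower in adult HSC (5.38 to 9.89 CPM) than in adult LMPP (14.1 to 24.2, adjusted p = 0.012, and 0.053 without adult LMPP 1). In the retinoic acid list, 8 of 18 genes (44.4%) were linked, and 5 rose and 1 fell against adult LMPP, or 6 and 3 in the 2-group fit with the replicate block. The receptor gene Rarb, with 2 members in its body, was at 16.4, 16.6 and 14.8 CPM in adult HSC and at most 0.303 in adult LMPP (6.37 ± 0.84, adjusted p = 0.00069). Cyp26a1, the retinoic acid hydroxylase gene, had a member at its start and was at 0 in every library. Of 21 erythroid genes, 7 (33.3%) were linked, 7 of the list rose and 0 fell against adult LMPP (1 fell with the replicate block), and 0 rose and 2 fell against fetal HSC. The summed level of 8 erythroblast markers was 928 to 1059 CPM in fetal HSC, 44.2 to 158 in adult HSC, 23.1 to 51.0 in adult LMPP and 135 to 429 in fetal LMPP, with Slc4a1 at 0 in adult HSC, and the 2 genes that fell are among these markers. The part of erythroblasts in the calls was not tested. NF-kappaB and inflammation genes (25, with 9 linked) and immediate early genes (24, with 10 linked) rose in 2 and 4 cases and fell in 5 and 3 against adult LMPP.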

How the data were processed

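RNA-seq covered 11 libraries and ATAC-seq 8. Expected counts of exon reads per gene, 25124 genes in all, were deposited by the authors as HOMER wrote them from mm10, unnormalized per the file headers. Columns of other libraries numbered 0. Values not whole (22.5%) were rounded. The labels' protocols name SMART-Seq v4 cDNA and tagmentation. The submitters' processing notes list Trim Galore, STAR, HOMER, RSEM and DESeq2 and also MACS2, Picard, Bowtie2 2.3.5 and SAMtools 1.9, and, as builds, GRCm38.p5, mm10 and NCBIM37, without roles. The deposited peak lists, 1 per group, hold the authors' score, signal value and −log10 p and q values, used only within a list; pooling of reads before the call is not stated.

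Lines with several summits were reduced to distinct peaks. Counts were fitted in R 4.3.3 with edgeR 4.0.16 (filterByExpr, TMM, quasi-likelihood, a means model of 4 groups), leaving 14720 genes, with calls where the Benjamini-Hochberg adjusted p was below 0.05. The biological coefficient of variation was 0.372. Adjusted p-values are edgeR's over all genes tested. A total of 3 counts, the floor for a count of 0, is worth 0.0498 to 0.152 CPM, and floors cover counting error only. Only the edgeR fit was tested on simulated counts, drawn with the same spread for every gene and with known changes in adult HSC. Merging of peaks and linking to genes were not covered. Same-numbered adult HSC and adult LMPP libraries deviated together (correlations 0.153, 0.306 and 0.472). The main fit and its calls did not use the numbers as pairs. For some counts and genes, fits with the replicate number as a block are given as well. The part of adult HSC 3 and adult LMPP 3, which both stood apart, in these correlations was not tested. The members and gene lists were chosen with earlier results of these data known. Named were the 12 strongest regions; the 12 genes with most members; the 12 largest rises and 6 falls among genes called against the other 3 groups with at least 5 CPM and no overlap; the 3 listed genes with most members per list; and a fixed list of HSC genes. Other named genes (those at gene starts and further list members) were chosen after their values were seen. Some genes are not reported here.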

Additional observations from a re-analysis of the deposited data

How the results depend on the processing

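The number of adult HSC only regions moved to 4633 with peaks at or above each list's median score and to 1243 with that limit on the adult HSC list alone, and stayed near 9494 (8413 and 10427) under the other 2 merging rules. Linked genes called higher and lower against fetal HSC (169 and 99) became 321 and 184 with DESeq2, 479 and 278 without the 3 libraries that stood apart, 132 and 82 with a replicate block and, lower, 64 with only those groups fitted. Same-numbered HSC libraries of the 2 ages did not deviate together (correlations 0.06 and 0.097). Leaving out 1 library gave 40 to 161 higher and 36 to 97 lower against fetal HSC, 377 to 626 and 201 to 342 against adult LMPP (545 and 292), and 572 to 822 and 230 to 353 against the other 3 groups (789 and 310). Against adult LMPP, the replicate block with only those groups gave 861 and 508, and with all groups 485 and 277, while leaving out the 3 libraries gave 860 and 470. Against the other 3 groups the block gave 748 and 322, and leaving out the 3 libraries gave 533 lower.

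Other links change the genes counted by construction. Against fetal HSC, higher and lower calls were 95 and 48 with starts within 10 kb, 34 and 13 at starts within 1 kb, 257 and 151 with every start within 50 kb, 19 and 6 with at least 3 regions, 24 and 17 with regions at or above the median score, and 110 and 57 by gene body. Against adult LMPP they were 266 and 121, 95 and 29, 550 (lower, 50 kb), 59 and 17, 95 and 40, and 168 (lower, gene body) in the same order. Against the other 3 groups they were 378 and 121, 131 and 25, 630 (lower), 88 and 17, 134 and 42, and 177 (lower). The gene body link and the 2-group block fit were added after the data were seen. For single named genes, 299 values under an alternative fell below the threshold and 284 passed it. Of the values called in the main fit, 0 reversed. The other 7984 kept their side of the threshold or, where not called in the main fit, may have changed direction. The cause was not tested. Motifs in 500 bp around summits were not run, since no genome of the build was used here. RNA depth limits values below 0.152 CPM.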
